A study of Mus musculus with 12 samples.

Results

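P2rx7 and 8 further genes of purinergic signalling were followed across 12 microarrays of mouse CD8+ T cells. Purinergic signalling is the response of cells to nucleotides and nucleosides outside the cell. The 9 genes were P2rx7, P2rx4, Art2b, Entpd1, Nt5e, Ada, Dpp4, Adora2a and P2ry10, of 22907 named genes on the array. They were chosen by name. P2rx7 was singled out because it had already stood out in these data between lymph nodes and between knockout and wild-type mice, so its values in those comparisons are given as a description without a test. For each gene the brightest probe that was well above background on at least 2 arrays was used, and all 9 genes had one. The 9 genes had 15 probes, and 14 passed that filter. The other members were also picked with earlier results known.

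All samples were labelled as cells of female C57BL/6 mice, with no age given. Total CD8+ T cells from the mesenteric lymph nodes of the gut (MLN) gave 1 array of AID KO, 1 of uMT and 2 of wild-type (WT) mice. The same cells from peripheral lymph nodes (PLN) gave 1 AID KO, 1 uMT and 2 WT arrays. Naive CD8+ T cells, selected for low CD44, came from PLN of knockout mice only. They were sorted into fractions labelled Sca1p and Sca1m, taken from the sorting protocol to mean with and without Sca-1, with 1 array of each fraction from AID KO and 1 from uMT mice. AID is the deaminase that B cells need to switch and mutate their antibody genes, and uMT mice carry a disrupted membrane exon of the IgM heavy chain and have no mature B cells. Both are germline changes that act in the mouse as a whole. Per the design text there are no replicates, and the labels do not say how many animals gave each sample. P-values therefore measure departures from the additive terms of the fit and not a spread between known animals. Total cells were hybridised on 2 slides and naive cells on another slide, so no difference between these cell types was fitted.

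Levels are log2 intensities relative to the 75th percentile of the array, which ranged from 431.5 to 786.9 intensity units, with 50.1% to 56.8% of spots well above background. All 6 CD8 T cell markers on the array were well above background on all 12 arrays. Ly6a, the gene of Sca-1, went with the sort, at 3.87 and 3.40 in Sca1p and 0.03 and -0.10 in Sca1m cells. Among B cell markers, Cd79b was well above background on all 12 arrays, at 1.93 to 2.73, and Pax5 on 1 of 4 MLN, 2 of 4 PLN total-cell and 4 of 4 naive arrays. Cd79a was well above background on 2 arrays, WT PLN replicate 2 and Sca1p AID KO, and Ms4a1 on 1, AID KO MLN. Since these are bulk samples, fewer expressing cells and less RNA per cell cannot be told apart.

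P2RX7 is an ion channel of the cell surface that opens on extracellular ATP. In mouse T cells it can also be opened by ADP-ribosylation, for which the ecto-enzyme ART2.2, encoded by Art2b, uses extracellular NAD. CD39 (Entpd1) breaks ATP and ADP down to AMP, and CD73 (Nt5e) turns AMP into adenosine, which dampens T cells through the A2A receptor (Adora2a) and is cleared by adenosine deaminase (Ada). In mice, T cells of the gut carry much P2RX7, and retinoic acid, which acts through nuclear receptors, has been reported to raise it.

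P2rx7 was the member that varied most with the lymph node. The probe used for P2rx7 read 1.53 in AID KO, 1.54 in uMT and 2.25 and 2.05 in WT MLN cells, against -1.01 in AID KO, -1.12 in uMT and -0.48 and -0.68 in WT PLN cells. All 4 MLN arrays lay above all 4 PLN arrays. The fitted difference, MLN minus PLN, was 2.67 ± 0.07 on the log2 scale (SE), a 6.34-fold higher level in MLN, and it was the 13th in size among 25788 features. Single pairs gave much the same picture, with 2.54 in AID KO, 2.65 in uMT and 2.74 and 2.73 in WT on slides 1 and 2. The arrays of 1 WT site differed by 0.20 in MLN and by 0.19 in PLN, far less than any of these differences.

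Both other P2rx7 probes, which the array assigns to other transcripts of the gene, followed the first. A_55_P2183010 read -0.36 in AID KO, -1.003 in uMT and -0.61 and -0.26 in WT MLN cells, against -3.55, -3.04, -3.40 and -2.66 in the PLN arrays of AID KO, uMT and WT. A_51_P506733 read between -2.57 and -1.70 in MLN and between -5.95 and -4.40 in PLN, where it was well above background in the WT arrays only. Their differences, MLN minus PLN, were 2.61 ± 0.14 and 3.12 ± 0.17 (SE). The node difference was thus present with each of the 3 probes, although levels of different probes cannot be set against each other.

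**Figure D1:**
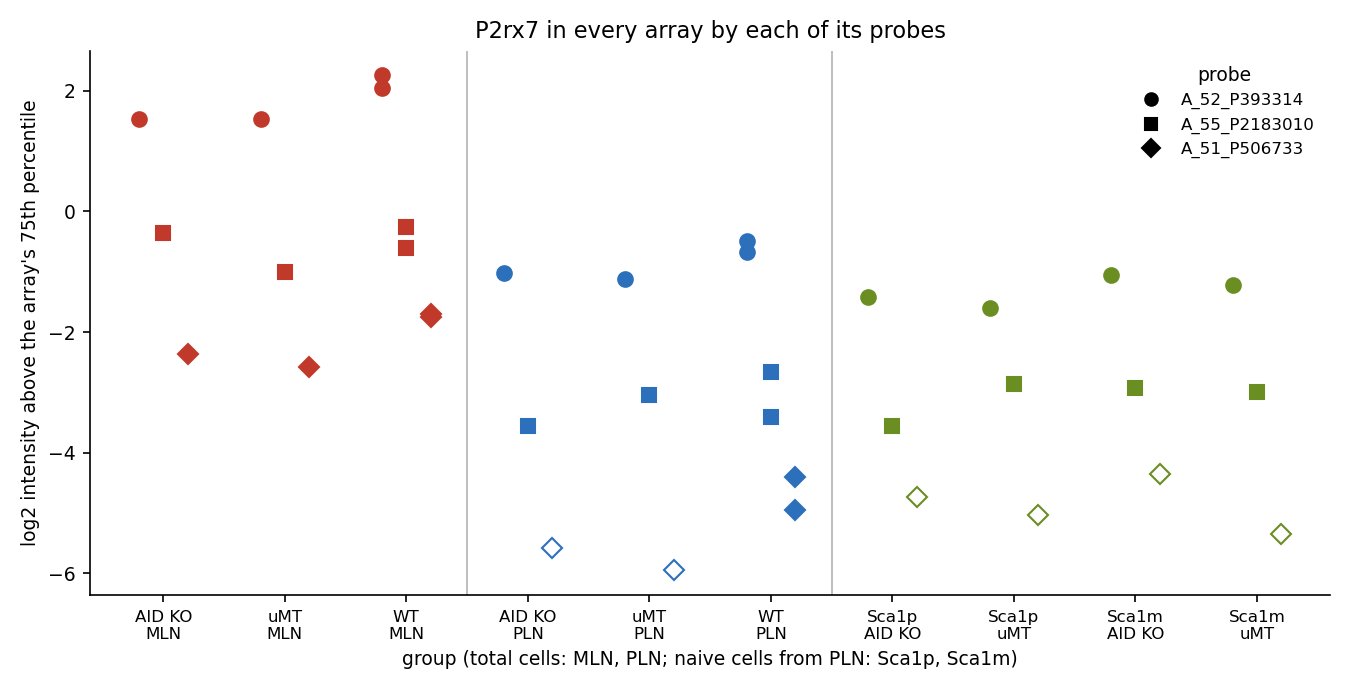
P2rx7 in each of the 12 arrays (x axis: group) by its 3 probes, as log2 intensity above the array's 75th percentile (y axis). Each symbol is 1 array, open symbols were not well above background, and with every probe all MLN arrays (red) stood above all PLN arrays (blue), while naive PLN cells (green) were hybridised on a slide of their own.

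Within a node, P2rx7 was lower in the knockouts than in WT. In MLN both knockout arrays, at 1.53 and 1.54, lay below the WT mean of 2.15 ± 0.14 (SD, n = 2), and in PLN both, at -1.01 and -1.12, lay below the WT mean of -0.58 ± 0.14 (SD, n = 2). AID KO and uMT cells of the same node differed from each other by less than that spread, but lay on different slides. Against the WT array of the same node and slide, AID KO gave -0.53 in PLN and -0.52 in MLN. For uMT this was -0.44 in PLN and -0.72 in MLN. The fitted difference of knockouts minus WT was -0.55 ± 0.07, a level 1.47-fold lower in knockouts, with -0.53 ± 0.09 in AID KO and -0.58 ± 0.09 in uMT. The other probes gave -0.26 ± 0.14 and -0.91 ± 0.17. With A_55_P2183010, knockouts and WT overlapped in both nodes, since AID KO MLN at -0.36 lay above 1 WT MLN array and uMT PLN at -3.04 above 1 WT PLN array. Each knockout array still read below the WT array of the same node and slide with that probe. AID KO read -0.36 against -0.26 in MLN and -3.55 against -3.40 in PLN. For uMT the readings were -1.003 against -0.61 in MLN and -3.04 against -2.66 in PLN. From high to low, the levels of the probe used were WT MLN, then uMT and AID KO MLN side by side, WT PLN, and then AID KO and uMT PLN side by side. Whether the node difference itself differed between knockouts and WT was tested separately. That interaction was -0.13 ± 0.15 for P2rx7 (adjusted p = 0.999 in limma).

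In naive PLN cells P2rx7 read -1.42 in AID KO and -1.60 in uMT Sca1p cells, and -1.06 in AID KO and -1.23 in uMT Sca1m cells. Both Sca1p arrays lay below both Sca1m arrays, as they did for Adora2a, Dpp4 and 17.1% of all features, while Art2b lay above, as did 18.0%. The difference, Sca1p minus Sca1m, was -0.37 ± 0.10 and did not pass (limma adjusted p = 0.416). A_55_P2183010 gave -0.26 ± 0.19. A_51_P506733 gave -0.03 ± 0.24 but was not well above background on any naive array. Between naive uMT and AID KO cells the difference was -0.18 ± 0.10 (limma adjusted p = 0.757). A_55_P2183010 went the other way, at 0.31 ± 0.19, and A_51_P506733 gave -0.64 ± 0.24.

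Art2b, whose product can open P2RX7 through NAD, was higher in MLN than in PLN on every array. It read 1.14 in AID KO, 1.37 in uMT and 1.29 and 1.18 in WT MLN cells, against 0.15 in AID KO, -0.55 in uMT and 0.38 and -0.06 in WT PLN cells. The difference was 1.26 ± 0.13, or 2.40-fold, with an adjusted p of 0.0538, just short of the threshold of 0.05. It passed under 4 alternative treatments of the data, with adjusted p between 0.00432 and 0.0273. It did not pass when any 1 of the 12 arrays was left out, with adjusted p between 0.0728 and 0.334. No probe was named as the close paralog Art2a, and cross-hybridisation between the paralogs was not tested. In knockouts versus WT, Art2b gave -0.17 ± 0.13 (adjusted p = 0.51), and in Sca1p versus Sca1m cells 0.28 ± 0.18 (adjusted p = 0.757).

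Nt5e, the gene of CD73, rose in MLN. It read 2.25 in AID KO, 2.45 in uMT and 2.23 and 2.14 in WT MLN cells, against 1.31 in AID KO, 1.28 in uMT and 1.27 and 1.00 in WT PLN cells. The groups did not overlap, and the difference was 1.05 ± 0.07, or 2.07-fold (limma adjusted p = 0.0129). Of the 8 members other than P2rx7, 1 (Nt5e) passed in MLN versus PLN, where 0.105% of all 25788 features passed. The call for Nt5e was lost when any 1 of the 8 total-cell arrays was left out, with adjusted p up to 0.18, while the difference itself stayed between 1.02 and 1.08. It was also lost when dim probes were kept (adjusted p = 0.0735). In knockouts versus WT, Nt5e gave 0.16 ± 0.07 (adjusted p = 0.322). In both nodes each knockout array lay above both WT arrays.

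P2rx4, an ATP-gated channel related to P2rx7, gave a smaller difference. It read 2.75 in AID KO, 2.46 in uMT and 2.47 in both WT MLN arrays, against 2.17 in AID KO, 2.41 in uMT and 2.08 and 2.07 in WT PLN cells. The MLN arrays lay above the PLN arrays, with a difference of 0.35 ± 0.08 that did not pass (adjusted p = 0.298). The uMT pair differed by 0.04 and the AID KO pair by 0.58. P2rx7, P2rx4, Nt5e and Art2b were thus the 4 of 9 members whose MLN arrays all lay above their PLN arrays, and 0 of 9 lay all below. Among all features 1.17% lay above in that way and 0.993% below. P2rx7 was singled out for its node difference and the other members were picked with earlier results known. The member counts are therefore a description and not a test.

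The remaining members differed little by node or overlapped between nodes. Ada differed by 0.02 ± 0.09, Adora2a by 0.06 ± 0.18, and Dpp4, a membrane peptidase whose human form binds adenosine deaminase, by 0.14 ± 0.07, with adjusted p of 0.975, 0.961 and 0.639. Entpd1 was dim, between -4.65 and -3.92 in MLN and between -4.73 and -4.198 in PLN cells, with a difference of 0.21 ± 0.52 (limma adjusted p = 0.954). That error is shared over all 12 arrays and takes in the naive Sca1m AID KO array, at -1.04. It therefore does not measure the spread of the total-cell arrays. Single total-cell pairs gave 0.18 and 0.37 in WT, 0.20 in AID KO and 0.08 in uMT. P2ry10, a receptor of the P2Y family by sequence that responds to lysophospholipids, went the other way. It read 1.67 in AID KO, 2.92 in uMT and 2.31 and 2.19 in WT MLN cells, against 2.24 in AID KO, 2.95 in uMT and 3.13 and 2.82 in WT PLN cells, and its difference was -0.52 ± 0.11 (adjusted p = 0.257). The median difference over the 9 members, P2rx7 included, was 0.21, against -0.01 over all features. With members picked when earlier results were known, that is a description and not a test.

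**Figure D2:**
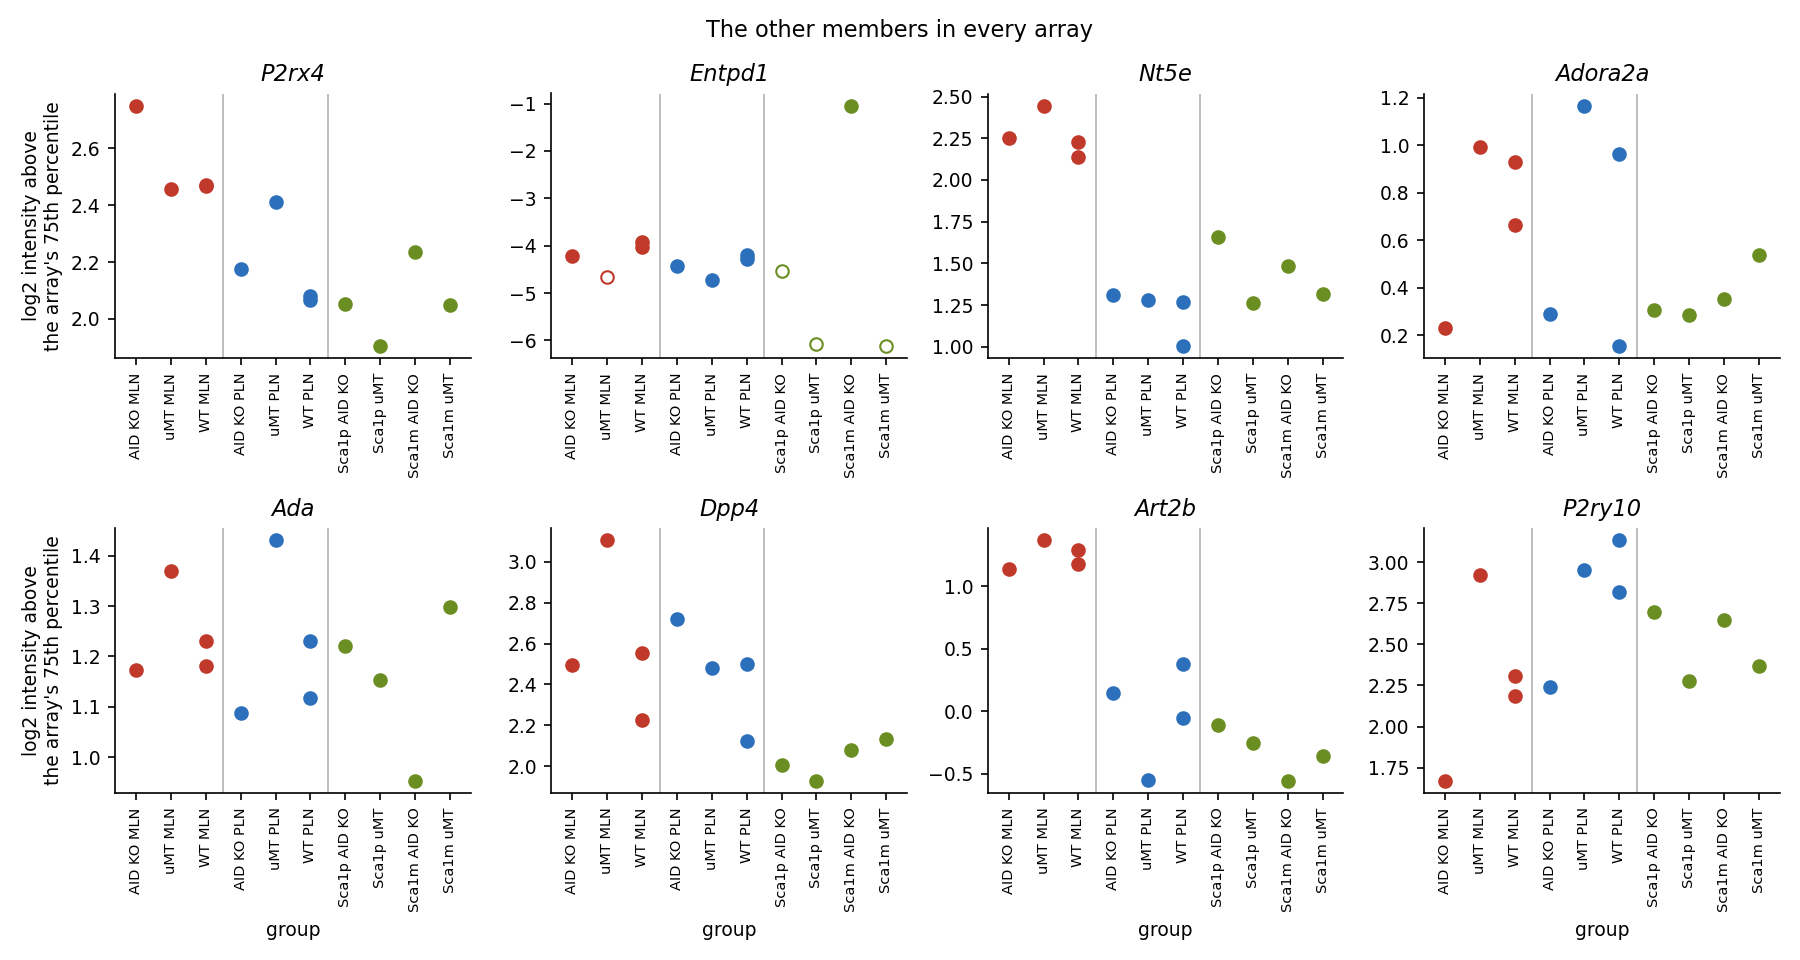
The 8 members other than P2rx7 in each array (x axis: group), as log2 intensity above the array's 75th percentile (y axis, own scale per panel). Each point is 1 array and open points were not well above background. In P2rx4, Nt5e and Art2b the MLN arrays (red) stood above the PLN arrays (blue), and in Entpd1 the Sca1m AID KO array stood apart at -1.04 among the naive cells (green).

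Markers of other cells were read beside the node differences. The summed level of the 3 erythroid markers on the array, relative to the 75th percentile, ranged from 0.889 to 4.196 in MLN and from 0.0775 to 0.614 in PLN total cells, mostly from Hba-a1. That of the 11 memory and effector CD8 genes ranged from 121 to 131 in MLN and from 133 to 143 in PLN, and the brightest probes weigh most in it. Of these 11 genes 6 were higher and 5 lower in MLN, 0 passed, and the median difference was 0.16. Tbx21, a transcription factor of effector cells, read 2.18 to 2.36 in MLN and 1.78 to 1.85 in PLN. Gzmb was also higher in MLN, at -2.34 to -1.42 against -3.22 to -2.37 in PLN. Cxcr3 and Cxcr6 were lower in MLN without overlap. Cxcr3 read 3.41 to 3.54 in MLN and 3.64 to 3.96 in PLN. Cxcr6 read 4.28 to 4.69 in MLN and 4.77 to 5.21 in PLN. For the 5 naive T cell genes the summed level was 307 to 379 in MLN and 315 to 439 in PLN. For the 5 regulatory and CD4 T cell genes it was 1.67 to 2.47 in MLN and 1.89 to 2.98 in PLN. The part of these shifts in the member differences was not tested.

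Among the members other than P2rx7, no call was made in either genotype. In knockouts versus WT 0 of the 8 members other than P2rx7 passed, where 0.446% of all features did. Of these 8, 1 (Dpp4) had an unadjusted limma p under 0.05, as did 4573 of 25788 features. Dpp4 read 2.496 in AID KO, 3.11 in uMT and 2.55 and 2.23 in WT MLN cells, against 2.72 in AID KO, 2.48 in uMT and 2.498 and 2.13 in WT PLN cells. Each node overlapped between knockouts and WT. Each knockout array was higher than the WT array of the same node and slide. For AID KO this was by 0.22 in PLN and 0.27 in MLN, and for uMT by 0.35 in PLN and 0.55 in MLN. The fitted Dpp4 difference was 0.35 ± 0.07 (limma adjusted p = 0.0973), and the second Dpp4 probe gave 0.12 ± 0.12. P2ry10 ran in opposite directions in the genotypes, a contrast that was not tested. It gave -0.66 ± 0.14 in AID KO (adjusted p = 0.107, or 0.042 in the authors' series matrix) and 0.32 ± 0.14 in uMT (adjusted p = 0.292), and both comparisons share their WT arrays. In AID KO versus WT 0.888% of all features passed and in uMT versus WT 0.0349%. Knockout arrays lay below both WT arrays in each node for P2rx7 and Entpd1, as did 5.11% of all features, and above them for Nt5e, as did 5.69%. For the interaction of knockout and node 0 features passed in limma and 1102 had an unadjusted p under 0.05. P2ry10 was among these, at 0.43 ± 0.15 (limma adjusted p = 0.999).

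**Figure D3:**
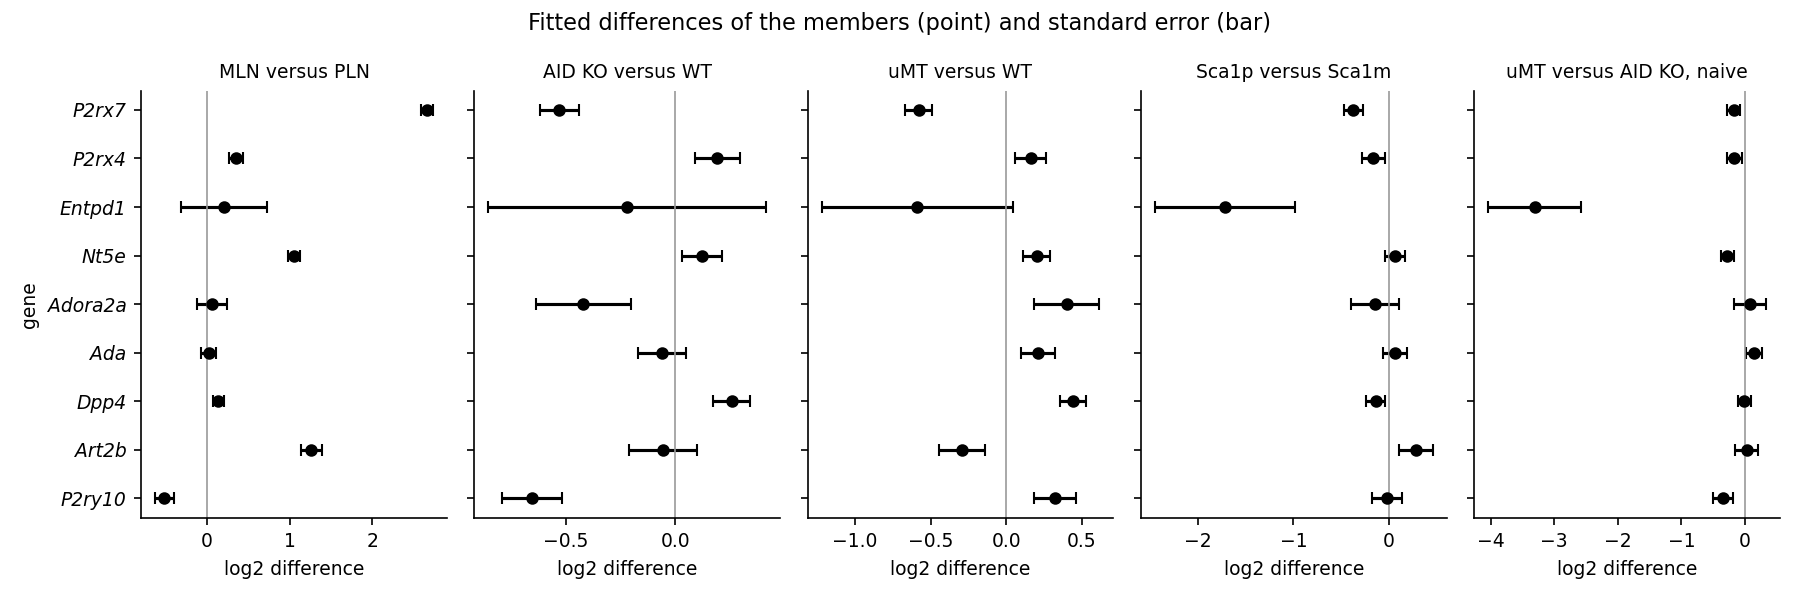
Fitted log2 differences (x axis, own scale per panel) of the 9 members (y axis) in 5 comparisons. Points are the fitted difference and bars its standard error. P2rx7 at 2.67, Art2b at 1.26 and Nt5e at 1.05 stand far to the right of 0 in MLN versus PLN, and Entpd1 has the widest bars.

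Among naive cells the member that stood apart was Entpd1, and on 1 array. It read -4.52 in AID KO and -6.07 in uMT Sca1p cells, against -1.04 in AID KO and -6.12 in uMT Sca1m cells, and only the AID KO Sca1m array was well above background. In Sca1p versus Sca1m cells the Entpd1 difference was -1.72 ± 0.73 (adjusted p = 0.615). Both Sca1p arrays and the uMT Sca1m array were below background, so no bound on the fold can be given for the 2 genotypes together. Without either AID KO array the difference was 0.053, and without either uMT array it was -3.48, with the Sca1p side below background in both cases. Each of these is the difference of 1 pair of naive arrays, which has no spread of its own. In naive uMT versus AID KO cells the Entpd1 difference was -3.31 ± 0.73 (limma adjusted p = 0.22). Both uMT arrays and the AID KO Sca1p array were below background there. Single pairs, uMT minus AID KO, gave -1.54 in Sca1p and -5.08 in Sca1m cells, and a fit without 1 naive array rests on 1 such pair. Without the AID KO Sca1m array no naive reading was well above background. Entpd1 was also the 1 member of 9 to pass for Sca-1 by genotype, where 0.0899% of all features did. The second Entpd1 probe was not well above background on any array and read -6.61 on the AID KO Sca1m array. Of all features, 64 (0.25%) stood at least 3 log2 units above the other 3 naive arrays on that array, and 80, 14 and 14 did on the Sca1p AID KO, Sca1p uMT and Sca1m uMT arrays. In Sca1p versus Sca1m and in naive uMT versus AID KO cells 0 of 9 members passed, where 0.0155% and 0.384% of all features did. For Nt5e the naive genotype difference was -0.28 ± 0.10 (adjusted p = 0.508).

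Of 66 other purinergic genes, listed by role and chosen with earlier results known, 47 were tested. In MLN versus PLN 21 were higher and 26 lower, 0 passed, and the median difference was -0.01, equal to that of all features. Cd38, an ecto-enzyme that consumes NAD, the substrate of ART2.2, read -2.04 in AID KO, -1.81 in uMT and -2.09 and -1.81 in WT MLN cells, against -2.47 in AID KO, -2.62 in uMT and -2.62 and -3.07 in WT PLN cells. Its difference was 0.76 ± 0.14 (adjusted p = 0.189). P2ry1, an ADP receptor, was at -1.34 ± 0.26 (adjusted p = 0.206) and not well above background on 3 of 4 MLN arrays. Adora3, an adenosine receptor, was not well above background in PLN. In MLN it was so in the knockout arrays only, at -3.97 in uMT and -4.74 in AID KO (limma adjusted p = 0.255).

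In knockouts versus WT 0 of the 47 passed either. Casp1, the protease that matures interleukin-1 and interleukin-18 in inflammasomes that P2RX7 can set off, read 0.42 in AID KO, 0.48 in uMT and -0.53 and -0.59 in WT MLN cells, and 0.02 in AID KO, 0.20 in uMT and -0.39 and -0.59 in WT PLN cells. All knockout arrays lay above all WT arrays, and the difference was 0.81 ± 0.11 (adjusted p = 0.0586). In naive cells the Casp1 difference of uMT minus AID KO was -0.63 ± 0.16 (adjusted p = 0.283). Crem, a repressor and activator of cAMP-driven transcription, was at -0.82 ± 0.13 in knockouts versus WT (adjusted p = 0.0683). Art1, an ecto-ADP-ribosyltransferase, passed in AID KO versus WT at 1.28 ± 0.17 (adjusted p = 0.0448). It was dim, at -4.29 in MLN and -4.04 in PLN of AID KO mice, against -6.04 and -5.77 in MLN and -5.10 and -4.87 in PLN of WT mice, where 3 of these 4 WT arrays were below background. With normexp background correction the Art1 difference was 0.30 (adjusted p = 0.484), and with each knockout array blocked with its matched WT array it was 1.27 (adjusted p = 0.229). The Art1 call was also lost without a slide term, without the filter on dim probes, with total-cell arrays alone, and when any array but uMT MLN or uMT PLN was left out (adjusted p between 0.0646 and 0.4). In Sca1p versus Sca1m cells 0 of the 47 passed. P2ry2, a receptor for ATP and UTP, read -2.19 on the Sca1p AID KO array, and the other naive arrays were not well above background (limma adjusted p = 0.319). Ampd1, which deaminates AMP inside the cell, was at -0.49 ± 0.10 (adjusted p = 0.268).

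The promoters of the members were read for the half-sites of nuclear receptors, the class to which retinoic acid receptors belong. Sequences are shown for the members whose MLN arrays all lay above their PLN arrays. The windows are the 250 bases before each start in RefSeq (GRCm38.p6), which held 11 windows for 8 of the 9 members. The motifs searched on either strand were the core AGGTCA, the variant AGTTCA, the variant GGGTCA and the variant GGTTCA, shown in capitals where they occur. The first P2rx7 window is chr5:122643677-122643926, plus strand, and the second, of another start, is chr5:122650133-122650382, plus strand. That of Art2b is chr7:101581162-101581411, minus strand, that of Nt5e is chr9:88327359-88327608, plus strand, and that of P2rx4 is chr5:122707294-122707543, plus strand.
P2rx7, first start: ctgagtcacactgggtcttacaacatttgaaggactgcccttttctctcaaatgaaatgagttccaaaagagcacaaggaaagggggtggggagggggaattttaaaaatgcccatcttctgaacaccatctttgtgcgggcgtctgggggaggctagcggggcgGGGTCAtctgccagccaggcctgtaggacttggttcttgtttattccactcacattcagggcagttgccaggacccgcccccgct
P2rx7, second start: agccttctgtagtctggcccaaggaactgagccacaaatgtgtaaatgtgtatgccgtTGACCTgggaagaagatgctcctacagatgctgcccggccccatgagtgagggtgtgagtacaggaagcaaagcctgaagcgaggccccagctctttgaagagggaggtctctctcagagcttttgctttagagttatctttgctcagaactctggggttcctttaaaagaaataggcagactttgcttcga
Art2b: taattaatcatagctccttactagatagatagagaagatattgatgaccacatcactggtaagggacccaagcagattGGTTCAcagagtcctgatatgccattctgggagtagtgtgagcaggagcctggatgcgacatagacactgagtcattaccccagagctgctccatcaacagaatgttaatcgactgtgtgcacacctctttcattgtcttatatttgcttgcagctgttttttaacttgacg
Nt5e: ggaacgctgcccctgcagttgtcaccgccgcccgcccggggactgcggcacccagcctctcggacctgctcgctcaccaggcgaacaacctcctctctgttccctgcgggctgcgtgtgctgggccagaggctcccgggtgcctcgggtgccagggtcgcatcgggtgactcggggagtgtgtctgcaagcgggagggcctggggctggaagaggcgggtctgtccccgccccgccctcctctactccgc
P2rx4: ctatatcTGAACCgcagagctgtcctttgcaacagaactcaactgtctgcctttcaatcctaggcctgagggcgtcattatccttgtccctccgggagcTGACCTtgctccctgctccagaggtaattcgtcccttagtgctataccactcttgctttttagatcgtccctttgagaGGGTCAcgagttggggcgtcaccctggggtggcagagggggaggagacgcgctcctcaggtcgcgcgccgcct
Each P2rx7 window held 1 half-site, GGGTCA at 85 bases and TGACCT, which is AGGTCA on the other strand, at 192 bases before the start. Art2b held GGTTCA at 172 bases, Nt5e held none and P2rx4 held 3. Members not higher in MLN held half-sites too, namely Ada GGTTCA at 99 bases and the first P2ry10 window TGACCT at 79 bases. The Entpd1 and Dpp4 windows and the second P2ry10 window held none. Of 32851 windows of that length, 38.6% held at least 1 such half-site, namely 4607 windows the core AGGTCA, 11.8% the variant AGTTCA, 11.6% the variant GGGTCA and 8.85% the variant GGTTCA. None of the 11 member windows held a direct repeat of them with 1, 2 or 5 bases between, which 0.164%, 0.174% and 0.0883% of all windows did. P2rx7 and P2rx4 are neighbours in that annotation, with 1 listed gene, Gm10064, between them.

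Of 13 retinoid-linked genes, 11 were tested, and 3 rose in MLN versus PLN, where 0.0931% of all features rose. Dhrs3, a retinaldehyde reductase, rose by 3.36 ± 0.16, and Hic1, a transcription factor, by 2.40 ± 0.13. Tgm2, a transglutaminase, was below background in all PLN total-cell arrays and at least 6.18-fold higher in MLN. All 3 had an adjusted p of 0.00563 in limma, and all 3 lost the call without either total-cell AID KO array. Dhrs3 and Hic1 also lost it without WT PLN replicate 1, Hic1 and Tgm2 without WT PLN replicate 2, and Tgm2 without WT MLN replicate 2 (adjusted p up to 0.07). The median over the 11 was 0.01. Hic1 followed P2rx7 over the 12 arrays with a Pearson correlation of 0.940, Dhrs3 with 0.913 and Tgm2 with 0.854. The list was chosen with earlier results known. In the knockouts Dhrs3 gave 0.60 ± 0.16 and Hic1 -0.42 ± 0.13 (adjusted p = 0.155 and 0.2).

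The genes whose pattern over the 12 arrays was most like that of P2rx7, among 13814 named genes measured on every array, were Bcl3, Dtx1, Osgin1, Gfi1 and Cish, with Pearson correlations of 0.974, 0.968, 0.963, 0.961 and 0.945. Bcl3 encodes a nuclear partner of NF-kB, Dtx1 a ubiquitin ligase of the Notch pathway, Gfi1 a transcriptional repressor and Cish an inhibitor of cytokine signalling. Bcl3 read 4.36 in AID KO, 4.38 in uMT and 4.19 and 4.31 in WT MLN cells, against 2.69 in AID KO, 2.81 in uMT and 2.75 and 2.92 in WT PLN cells. Its knockout arrays were not below the WT arrays in MLN, unlike those of P2rx7. Osgin1, a stress-responsive growth inhibitor, read -0.13 in AID KO, 0.06 in uMT and 0.58 and 0.35 in WT MLN cells, and -2.25 in AID KO, -2.02 in uMT and -2.28 and -2.26 in WT PLN cells. In MLN it kept the order of P2rx7, with both knockouts below WT, and in PLN it did not. Among the members, Art2b had a correlation of 0.944 and ranked 6th, Nt5e 0.874 and 34th, and P2rx4 0.799 and 80th. The lowest correlations were those of 4930486L24Rik at -0.938, Slc6a19, a transporter of neutral amino acids, at -0.917, and Pfn2, an actin-binding protein, at -0.911. These values describe 12 arrays that fall into a high MLN group and a lower rest, and any gene with that split scores high. They also pool total and naive cells from different slides. Over the 8 total-cell arrays alone, Bcl3 gave 0.964, Dtx1 0.967, Osgin1 0.983, Gfi1 0.973 and Cish 0.967. Hic1, at 0.987, was above these 5 there.

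**Figure D4:**
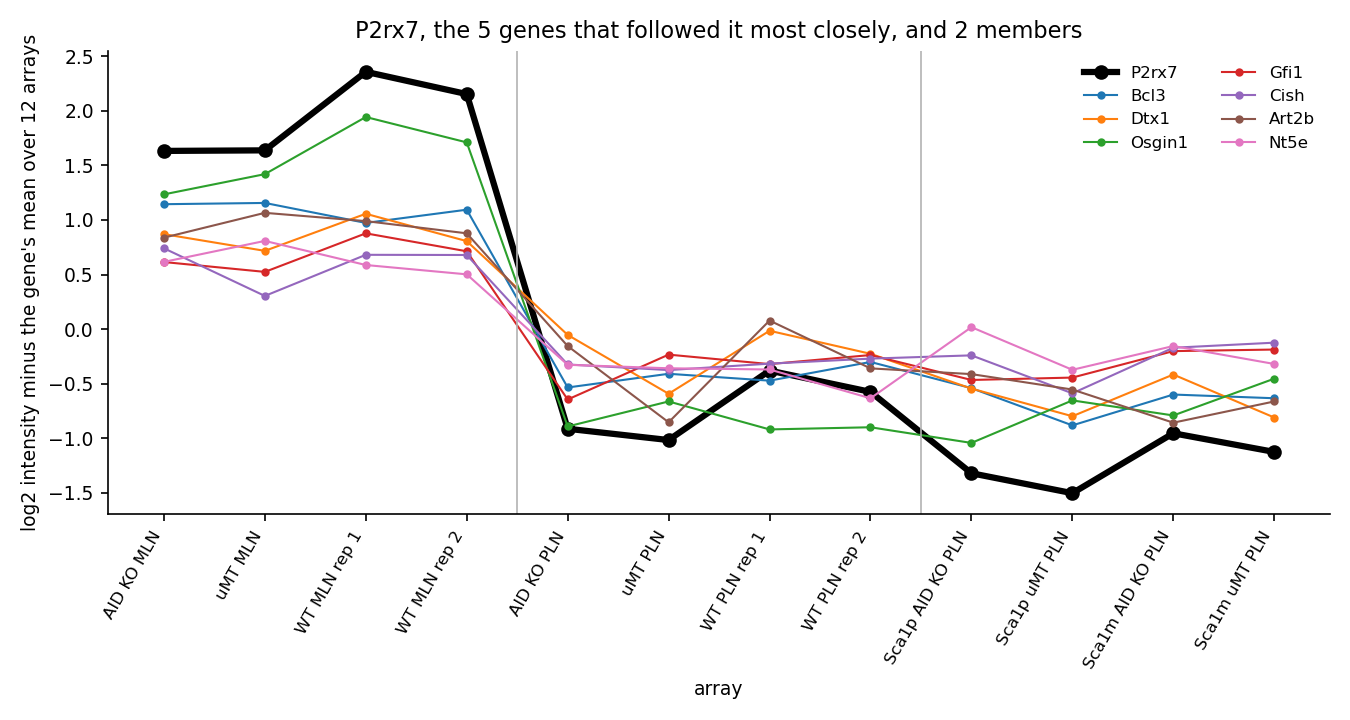
P2rx7, the 5 genes most like it and 2 members on each array (x axis), as log2 intensity minus the gene's own mean over the 12 arrays (y axis). Lines only join the points of a gene. All 8 genes are high on the 4 MLN arrays, and P2rx7 has the widest range.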

How the data were processed

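Each deposited scanner file gives the intensity of every spot, which per the file headers the authors extracted with Agilent Feature Extraction 11.0.1.1. This intensity is background-subtracted and not scaled across arrays. Flags for spot quality, used as other values of 0 or 1, are in the same deposited files. The log2 values of the deposited series matrix had been quantile normalized by the authors within each of the 3 slides, as setting them against the scanner files showed, so they served as an alternative.

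The level of a probe was its log2 processed intensity minus the array's 75th percentile, without control and outlier spots. Probes well above background on at least 2 of 12 arrays were kept (32157 of 56605). Transcript accessions and the RefSeq table of GRCm38.p6 gave 32989 probes 1 symbol, 0 several and 23616 none. A gene was represented by its brightest kept probe.

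A single limma fit (version 3.58.1, R 4.3.3) covered the 12 arrays. It had terms for node, slide and each knockout among total cells, and for an intercept, genotype and Sca-1 fraction among naive cells, with 4 residual degrees of freedom, or 3 with an interaction. Two-sided p-values were adjusted by Benjamini-Hochberg across the 25788 features at 0.05. Errors after ± come from the fit (SE) unless marked SD. For groups wholly below background, bounds used the lowest signal that the scanner software called above it. The scripts were tested on simulated data.

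Members, lists and tests were chosen with earlier results of these data known. Named genes were the 9 members, the 5 most and 3 least like P2rx7 by Pearson correlation, and up to 3 genes of each list with the lowest p per comparison. Alternatives were normexp (offset 50, on median spot and background signals), the series matrix, other filters, probe rules and slide terms, matched pair blocks, and leaving out each array.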

Additional observations from a re-analysis of the deposited data

Results flagged for a closer look

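Entpd1 had a Sca-1 difference that itself differed between uMT and AID KO naive cells, at 3.54 ± 0.22 on the log2 scale (interaction term in limma, adjusted p = 0.0449, with 0.0899% of all features passing). It read -6.07 in Sca1p and -6.12 in Sca1m uMT cells, against -4.52 in Sca1p and -1.04 in Sca1m AID KO cells. The value rests on the single Sca1m AID KO array, which alone was well above background, and each of the 4 groups has 1 array. The naive arrays thus leave no residual in that fit. Its error and p-value come from the spread of total-cell arrays on other slides. The call was lost with normexp (1.38, adjusted p = 0.211) and when any 1 of the 8 total-cell arrays was left out (adjusted p between 0.079 and 0.162).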

How the results depend on the processing

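Of 1149 member differences under the alternatives, 1088 kept their direction and their side of the threshold. Most of them had not passed as reported. Leaving out a naive array could not move a total-cell difference, nor the reverse, so part of the 1149 could not change direction. Another 34 changed sign, 30 of them when 1 array was left out. After the change of sign, none of those 34 had a size above 0.23. The reported difference was larger in some of them. It was -1.72 for Entpd1 in Sca1p versus Sca1m cells and 0.40 for Adora2a in uMT versus WT. In MLN versus PLN the count of members past the threshold was 1, and 2 with normexp, in the authors' series matrix, with probes well above background on all arrays and with slide as a random block (Art2b added). It was 0 with no filter on dim probes, and 0 to 1 when 1 array was left out. The P2rx7 difference in MLN versus PLN was 2.43 with normexp and 2.80 with the mean of its probes. In knockouts versus WT the count was 1 in the series matrix (Dpp4, 0.31). In AID KO versus WT it was 1 in the series matrix and with probes well above background on all arrays (P2ry10). The P2rx7 difference in uMT versus WT was -0.51 with normexp and ranged from -0.72 to -0.44 when 1 array was left out. When 1 array was left out, Entpd1 ranged from -3.48 to 0.053 in Sca1p versus Sca1m and from -5.08 to -1.54 in naive uMT versus AID KO cells. The AID KO Sca1m array alone was well above background in these cells. In the series matrix and with probes well above background on all arrays, 8 members had a value for Sca-1 by genotype and Entpd1 had none. The count of 0 there therefore could not show whether its call held. For Sca-1 by genotype the count was also 0 with normexp, without a slide term and when any 1 total-cell array was left out. The cause was not tested in these cases. Signs turned in Sca1p versus Sca1m for Nt5e with normexp (-0.11) and, with the mean of all kept probes, for Dpp4 (0.029) and P2ry10 (0.022). With the mean of probes they also turned for Dpp4 in naive uMT versus AID KO cells (0.11) and for P2rx7 in knockout by node (0.077).

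When 1 array was left out, differences that turned sign ranged, in MLN versus PLN, from -0.012 to 0.065 for Ada and -0.13 to 0.30 for Adora2a. They ranged in knockouts versus WT from -0.25 to 0.23 for Adora2a, in AID KO versus WT from -0.17 to 0.042 for Art2b and -0.13 to 0.0077 for Ada, and in uMT versus WT from -0.016 to 0.34 for P2rx4 and -0.074 to 0.88 for Adora2a. In Sca1p versus Sca1m they ranged from -0.053 to 0.17 for Nt5e, -0.14 to 0.27 for Ada and -0.092 to 0.050 for P2ry10. In naive uMT versus AID KO cells they ranged from -0.076 to 0.058 for Dpp4, -0.019 to 0.18 for Adora2a, -0.067 to 0.34 for Ada and -0.14 to 0.19 for Art2b, and in knockout by node from -0.28 to 0.012 for P2rx7. The labels give no shared replicate numbers but name a corresponding WT array for each knockout PLN array. When knockout and WT arrays of 1 node on 1 slide formed a block (the matched pair block), 0 members passed in knockouts, AID KO or uMT versus WT, as without the block, and the count of all features was 8 against 115, 13 against 229 and 2 against 9. Over all alternatives and left-out arrays, that count ran from 2 to 74 in MLN versus PLN (27 as reported), 0 to 539 in knockouts, 1 to 586 in AID KO and 0 to 92 in uMT versus WT, 0 to 173 in Sca1p versus Sca1m (4 as reported) and 0 to 217 in naive uMT versus AID KO cells (99 as reported). The number of arrays limits the precision, and a fit that leaves a group without an array takes its spread from the others. With 1 naive array left out, the spread set against naive differences comes from total-cell arrays alone.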
